A study of Mus musculus with 6 samples.

Results

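The 10 genes described here are transcription factors that set up or maintain the trophectoderm, and the keratins Krt8 and Krt18 that mark it. They were chosen by name, and each was read from its brightest single-symbol probeset by the mean over 6 arrays. All 10 were measured, out of 22180 genes with such a probeset. The trophectoderm is the outer epithelium of the blastocyst, which pumps fluid into its cavity, attaches to the uterus and gives rise to the placenta. In outer cells of the mouse embryo the Hippo pathway is off, so that the coactivators YAP and TAZ enter the nucleus, bind TEAD4 and switch on Cdx2, while GATA3 acts in parallel. In diapause a blastocyst stops growing before implantation and keeps an intact trophectoderm until it is activated.

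All groups came from let7g-transgenic mice, and each group had 2 arrays. DOX-7g blastocysts had entered dormancy in vitro after induction with DOX (let-7-induced dormancy in the labels) and were at day 7. Dor-7g blastocysts were dormant in vivo, also at day 7, and D4-act-7g blastocysts were day 4-activated. Dormancy, DOX, culture and day differ between DOX-7g and D4-act-7g, dormancy and day between Dor-7g and D4-act-7g, and DOX and culture in vitro between DOX-7g and Dor-7g. Within each comparison these cannot be told apart. The labels give neither the promoter of the transgene nor the age of the mice. RNA came from 10 blastocysts of each group, and nothing in the labels says that both arrays of a group came from separate pools, so p-values measure only the spread between these arrays, which may be technical. In whole blastocysts, fewer cells of a type and less RNA per cell cannot be told apart.

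The microRNA behind the induced dormancy is let-7g. RefSeq (GRCm38.p6) places its mature 5p arm at chr9:106178846-106178867 on the plus strand, and the sequence is shown with the seed, bases 2 to 8, in capitals.
mmu-let-7g-5p: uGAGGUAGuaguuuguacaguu
The array's probeset for the Mirlet7g gene stood between 3.20 and 3.59 log2 units, below the array median on all 6 arrays. The labels do not say whether the transgene's transcript carries the target of this probeset, so the probeset does not check the induction.

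Values are the authors' log2 signals, and a signal is compared between arrays for the same gene, never between genes. The array medians were 4.87 on Dor-7g replicate 1 and 4.62 to 4.67 on the other 5 arrays. The arrays of a group correlated across probesets at Pearson's r = 0.919 in Dor-7g, 0.969 in DOX-7g and 0.978 in D4-act-7g, a description over probesets, which are not replicates. The median sets Dor-7g replicate 1 apart, whereas r is shared by both Dor-7g arrays and does not say which of them deviates. Dor-7g replicate 2 held the highest values of the uterine stroma genes Dcn and Lum (9.29 and 5.01). The change of each member in Dor-7g against D4-act-7g is also given without each Dor-7g array in turn. The arrays carried signal of all lineages of a blastocyst, though not of every marker. Beside the keratins, the epiblast gene Dppa5a lay between 8.48 and 11.54 and the primitive endoderm gene Sox17 between 6.91 and 7.49. The inner cell mass genes Sox2 (3.60 to 3.92) and Esrrb (3.93 to 4.32) lay below the array median on every array. Tdgf1 lay below it on both DOX-7g arrays and Dor-7g replicate 1. Of the 10 inner cell mass and epiblast genes, 7 or 8 were at or above the median on each array.

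No member passed the threshold, an adjusted p of 0.05 in limma over 14020 genes, in any of the 3 comparisons. In Dor-7g against D4-act-7g 0 of 10 passed, where 0.984% of all genes tested did. In DOX-7g against D4-act-7g 0 of 10 passed, against 0.956% of all genes, and in DOX-7g against Dor-7g 0 of 10, against 1.16%. At an unadjusted p under 0.05 in limma the counts were 0, 1 and 0 members, where 14.3%, 11% and 11.6% of all genes passed. At these shares of all genes, a count of 0 of 10 is near the background. All 10 members passed the filter on dim probesets, 8 of them with all 6 arrays at or above the array median, Tfap2c with 5 and Elf5 with 4.

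**Figure D1:**
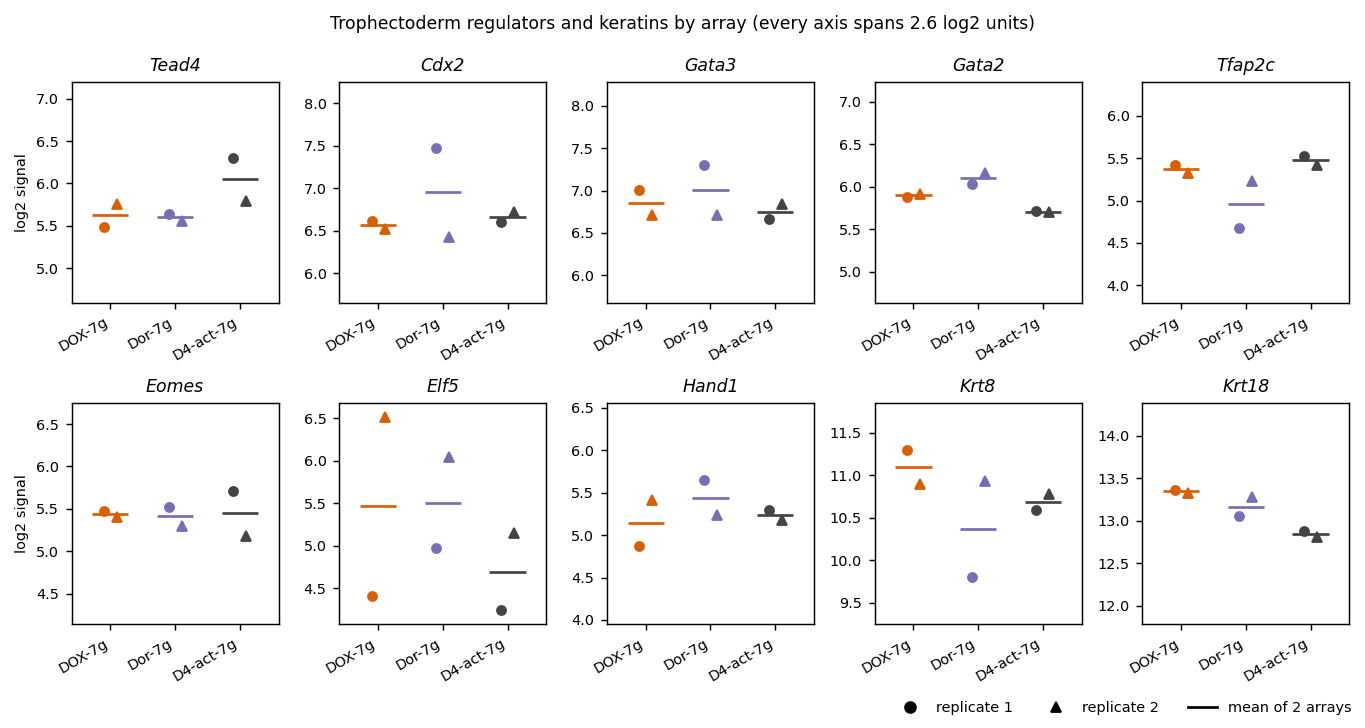
Log2 signal of the 10 genes on each array (y axis, 2.6 log2 units in every panel) in DOX-7g, Dor-7g and D4-act-7g; points are arrays and lines the mean of 2 arrays. Krt18 is higher on all DOX-7g and Dor-7g arrays than on both D4-act-7g arrays, whereas Krt8 is lowest on Dor-7g replicate 1 (9.80) and Elf5 spreads by 2.11 within DOX-7g.

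Tead4 and the factors Cdx2, Gata3, Gata2 and Tfap2c come first. Tead4, the DNA-binding partner of YAP and TAZ that starts the trophectoderm programme, stood at 5.49 and 5.76 log2 units in DOX-7g, 5.64 and 5.56 in Dor-7g, and 6.30 and 5.79 in D4-act-7g. All 4 arrays of both dormant groups lay below both D4-act-7g arrays, with 5.76 in DOX-7g next to 5.79 in D4-act-7g. The change was -0.45 ± 0.23 in Dor-7g against D4-act-7g (SE, n = 2 arrays each; limma, adjusted p = 0.449) and -0.42 ± 0.23 in DOX-7g against D4-act-7g (limma, adjusted p = 0.634), and these comparisons share the D4-act-7g arrays. Without D4-act-7g replicate 1, the highest array, they were -0.19 and -0.17, and without D4-act-7g replicate 2 they were -0.70 and -0.68. Without Dor-7g replicate 1 the change in Dor-7g was -0.49, and without Dor-7g replicate 2 it was -0.41.

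Cdx2, the homeobox factor that represses pluripotency genes in the trophectoderm, stood at 6.61 and 6.53 in DOX-7g, 7.48 and 6.43 in Dor-7g, and 6.60 and 6.72 in D4-act-7g. The groups overlapped, and 5 of the 6 arrays fell between 6.43 and 6.72, with Dor-7g replicate 1 above them. The change in Dor-7g against D4-act-7g was 0.29 ± 0.35 (limma, adjusted p = 0.726) and became -0.23 without Dor-7g replicate 1 (limma, adjusted p = 0.614). Without Dor-7g replicate 2 it was 0.82 (limma, adjusted p = 0.0576). In DOX-7g against D4-act-7g the difference was -0.09, with a 95% interval from -0.96 to 0.77.

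Gata3, the zinc finger factor that acts beside Cdx2, stood at 7.00 and 6.72 in DOX-7g, 7.30 and 6.71 in Dor-7g, and 6.66 and 6.84 in D4-act-7g. Its groups overlapped, again with the highest value on Dor-7g replicate 1. The change was 0.26 ± 0.26 in Dor-7g against D4-act-7g (limma, adjusted p = 0.675), -0.04 without Dor-7g replicate 1 and 0.55 without Dor-7g replicate 2. A second, dimmer Gata3 probeset stood at 5.72 and 5.52 in DOX-7g, 6.06 and 5.34 in Dor-7g, and 5.39 and 5.37 in D4-act-7g, so that both probesets were highest on the same array. A further Gata3 probeset annotated with other genes as well was left out.

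Gata2, which works with Gata3 in trophoblast cells, stood at 5.88 and 5.92 in DOX-7g, 6.03 and 6.17 in Dor-7g, and 5.71 and 5.70 in D4-act-7g. The 3 groups did not overlap, with Dor-7g highest and D4-act-7g lowest. The change in Dor-7g against D4-act-7g was 0.39 ± 0.17, with a 95% interval from -0.02 to 0.80 (limma, adjusted p = 0.371). It was 0.46 without Dor-7g replicate 1 and 0.32 without Dor-7g replicate 2. The change in DOX-7g against D4-act-7g was 0.19 ± 0.17 (limma, adjusted p = 0.82). None of the 16 alternatives brought Gata2 past the threshold in any comparison, and its adjusted p in Dor-7g against D4-act-7g in limma ranged from 0.256 to 0.851 over them.

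Tfap2c, which encodes the transcription factor AP-2 gamma of trophoblast and germ cells, stood at 5.42 and 5.32 in DOX-7g, 4.67 and 5.24 in Dor-7g, and 5.52 and 5.42 in D4-act-7g. Both Dor-7g arrays lay below all the others, with replicate 1 lowest. The change was -0.52 ± 0.23 in Dor-7g against D4-act-7g (limma, adjusted p = 0.389), -0.10 in DOX-7g against D4-act-7g and 0.42 ± 0.23 in DOX-7g against Dor-7g (limma, adjusted p = 0.532). Without Dor-7g replicate 1 the change was -0.24 in Dor-7g against D4-act-7g and 0.14 in DOX-7g against Dor-7g. Without Dor-7g replicate 2 these changes were -0.80 and 0.70.

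Genes of the trophoblast stem cell state and of later trophoblast were next. Eomes, the T-box factor needed for trophoblast stem cells, stood at 5.48 and 5.41 in DOX-7g, 5.53 and 5.30 in Dor-7g, and 5.72 and 5.18 in D4-act-7g. The D4-act-7g arrays enclosed all the others. Its change was -0.03 in Dor-7g and -0.004 in DOX-7g against D4-act-7g, with 95% intervals from -0.62 to 0.55 and from -0.58 to 0.58, and the sign in DOX-7g turned after a second quantile normalization. Without Dor-7g replicate 1 the change in Dor-7g was -0.15, and without Dor-7g replicate 2 it was 0.08.

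Elf5, an ETS factor that reinforces Cdx2 and Eomes in mouse trophoblast stem cells, stood at 4.41 and 6.52 in DOX-7g, 4.97 and 6.04 in Dor-7g, and 4.24 and 5.15 in D4-act-7g. Every group spread widely, by 2.11 log2 units in DOX-7g, 1.07 in Dor-7g and 0.90 in D4-act-7g. In each group replicate 2 was the higher array, and the groups overlapped. Of all genes tested 99.4% differed less between the DOX-7g arrays. The changes of 0.81 ± 0.76 in Dor-7g and 0.77 ± 0.76 in DOX-7g against D4-act-7g did not pass (limma, adjusted p = 0.656 and 0.857), and the interval in Dor-7g ran from 0.478-fold to 6.44-fold. The change in Dor-7g was 1.35 without Dor-7g replicate 1 and 0.28 without Dor-7g replicate 2, and that in DOX-7g was 1.83 without DOX-7g replicate 1 and -0.29 without DOX-7g replicate 2.

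Hand1, a basic helix-loop-helix factor of trophoblast giant cells, stood at 4.87 and 5.41 in DOX-7g, 5.65 and 5.24 in Dor-7g, and 5.29 and 5.18 in D4-act-7g. The groups overlapped, and the changes against D4-act-7g were 0.21 in Dor-7g and -0.10 in DOX-7g (limma, adjusted p = 0.739 and 0.97). The change in Dor-7g was 0.00077 without Dor-7g replicate 1 and 0.41 without Dor-7g replicate 2, and that in DOX-7g was 0.17 without DOX-7g replicate 1.

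Krt8 and Krt18 encode the type II and type I keratins that pair into the intermediate filaments of simple epithelia, and each protein is unstable without its partner. Krt18 stood at 13.37 and 13.33 log2 units in DOX-7g, 13.05 and 13.28 in Dor-7g, and 12.87 and 12.81 in D4-act-7g. All 4 day 7 arrays lay above both D4-act-7g arrays, and the DOX-7g arrays lay above the rest. The change of 0.51 ± 0.18 in DOX-7g against D4-act-7g, or 1.42-fold with a 95% interval from 1.05 to 1.92, had the smallest unadjusted p of the members (0.0284) and did not pass (limma, adjusted p = 0.369). It lay between 0.48 and 0.67 over 16 alternatives in limma, and the adjusted p between 0.125 and 0.957. Krt18 differed by 0.32 ± 0.18 between Dor-7g and D4-act-7g (limma, adjusted p = 0.46), by 0.44 without Dor-7g replicate 1 and by 0.21 without Dor-7g replicate 2. A second, dimmer Krt18 probeset stood at 6.02 and 6.59 in DOX-7g, 5.52 and 6.10 in Dor-7g, and 5.28 and 5.65 in D4-act-7g; its mean was 0.84 higher in DOX-7g than in D4-act-7g.

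Krt8 stood at 11.30 and 10.90 in DOX-7g, 9.80 and 10.93 in Dor-7g, and 10.59 and 10.77 in D4-act-7g. Both DOX-7g arrays and Dor-7g replicate 2 lay above the D4-act-7g arrays, whereas Dor-7g replicate 1 lay below all others. The change in DOX-7g against D4-act-7g was 0.42 ± 0.39 (limma, adjusted p = 0.839). In Dor-7g against D4-act-7g it was -0.32 ± 0.39 (limma, adjusted p = 0.735), 0.25 without Dor-7g replicate 1 and -0.88 without Dor-7g replicate 2. In DOX-7g against Dor-7g it was 0.73 ± 0.39 (limma, adjusted p = 0.516), 0.17 without Dor-7g replicate 1, and 1.30 without Dor-7g replicate 2, where it passed (limma, adjusted p = 0.0496). That was the one setting of any comparison under which a member passed, and it rests on Dor-7g replicate 1 alone. On that array Krt8 lay 1.13 below Dor-7g replicate 2, whereas the 307 other genes with a mean within 0.5 log2 units of it lay a median of 0.22 below.

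The members share little by position: Gata3, Elf5 and Tfap2c lie on chromosome 2, Gata2 and Tead4 on chromosome 6, Cdx2 on 5, Eomes on 9, Hand1 on 11, and Krt8 and Krt18 next to each other on 15, with only 2 annotated long non-coding RNA genes starting between them. For the neighbouring keratin pair the 250 bases before each start are shown, from RefSeq (GRCm38.p6), with matches to the searched motifs in capitals. The Krt8 window is chr15:102004343-102004592 on the minus strand and the Krt18 window chr15:102027966-102028215 on the plus strand.
Krt8: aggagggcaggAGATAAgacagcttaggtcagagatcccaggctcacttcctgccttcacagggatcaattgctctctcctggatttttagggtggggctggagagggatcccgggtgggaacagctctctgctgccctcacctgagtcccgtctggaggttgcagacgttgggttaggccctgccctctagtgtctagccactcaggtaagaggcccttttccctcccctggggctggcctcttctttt
Krt18: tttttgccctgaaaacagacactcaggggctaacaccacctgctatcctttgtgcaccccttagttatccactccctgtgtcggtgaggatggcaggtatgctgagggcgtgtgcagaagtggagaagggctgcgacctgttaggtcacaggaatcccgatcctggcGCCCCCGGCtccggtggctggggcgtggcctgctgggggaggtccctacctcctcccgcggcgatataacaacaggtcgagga

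Motifs were searched as letters on both strands: GGAATG for TEAD factors, AGATAA or TGATAA for GATA factors, TTTATG for CDX factors, AGGTGT for T-box factors, GCCNNNGGC for AP-2 factors, TGANTCA for AP-1 and TATAAA for the TATA box. Matches to different motifs were counted apart, whether or not they overlapped. The Krt8 window held a GATA match starting 239 bases before the start and the Krt18 window an AP-2 match starting 83 bases before it. Over the 9 windows of the 7 members with an entry, the AP-2 motif was in 4 (Cdx2, Gata2, Gata3 and Krt18), where 13.7% of 32851 windows held it. The TEAD motif was in 2 (Gata2 and Elf5) against 12.6% of all windows, the GATA motif in 1 against 16.6%, the CDX motif in 1 (Elf5) against 10.8%, the T-box motif in 1 (Elf5) against 11.8%, and the AP-1 and TATA motifs in 0, against 6.75% and 12.4%. A match is a description of the letters in these windows.

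**Figure D2:**
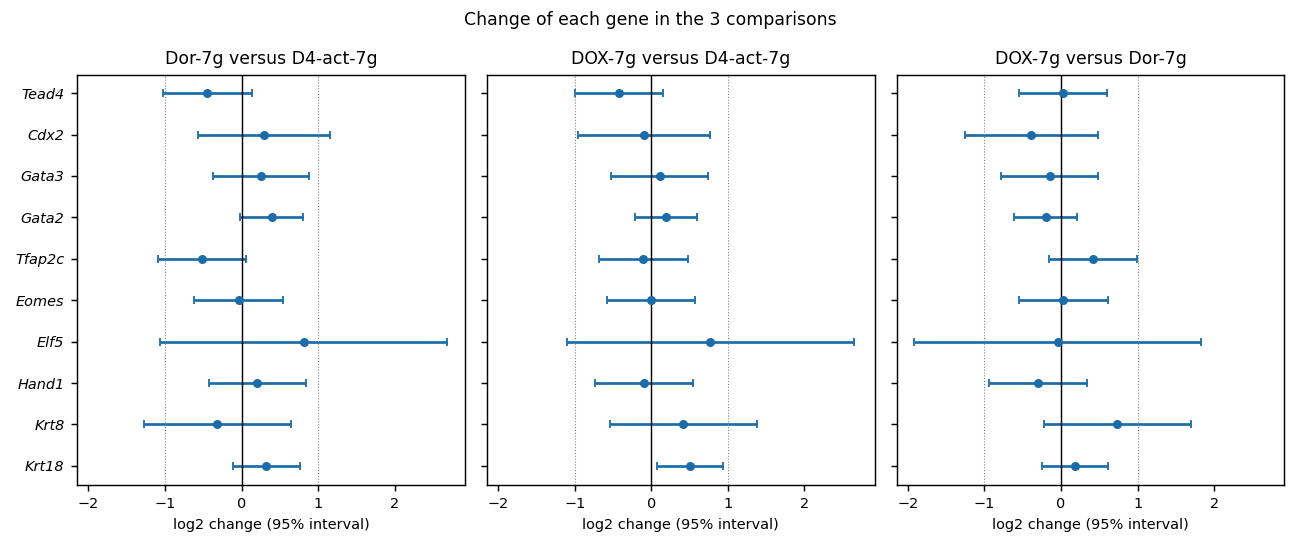
Log2 change of each gene (points, x axis) with limma's 95% interval (bars) in 3 comparisons; a value above 0 is higher in the group named first, and dotted lines mark a 2-fold change. The interval of Krt18 in DOX-7g against D4-act-7g (0.08 to 0.94) is the only one of 30 that leaves out 0, before adjustment.

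The intervals show how large a change these arrays could have missed. In Dor-7g against D4-act-7g 5 of 10 members had a 95% interval inside a 2-fold change in either direction, and those that did not were Cdx2, Tead4, Tfap2c, Elf5 and Krt8. In DOX-7g against D4-act-7g 7 of 10 did, the exceptions being Tead4, Elf5 and Krt8, and in DOX-7g against Dor-7g 7 of 10, the exceptions being Cdx2, Elf5 and Krt8. Of all genes tested 62.7%, 68.1% and 64.7% had such intervals. A p that misses the threshold does not show that the groups are alike: for Krt8 the interval in DOX-7g against Dor-7g reached 3.24-fold.

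The spread of the members was set beside that of other genes. Their median SD over the 6 arrays was 0.28 log2 units, and that of all genes tested was 0.27. The lowest SD was that of Gata2 (0.18) and the highest that of Elf5 (0.90), larger than in 93.3% of genes tested. Between the 2 arrays of a group the members differed by a median of 0.18 in DOX-7g, 0.49 in Dor-7g and 0.15 in D4-act-7g, and all genes tested by 0.20, 0.36 and 0.17. Cdx2, Krt8 and Elf5 made up the upper end in Dor-7g, with differences larger than in 90.3%, 91.4% and 90.6% of genes tested.

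The groups did not overlap for 4 of 10 members in Dor-7g against D4-act-7g, with Gata2 and Krt18 higher and Tead4 and Tfap2c lower. Of all genes tested 45.8% did not overlap in that comparison, 24.3% higher and 21.5% lower. In DOX-7g against D4-act-7g the count was 5 of 10, with Gata2, Krt8 and Krt18 higher and Tead4 and Tfap2c lower, where 49.7% of all genes did not overlap, 19.2% higher and 30.5% lower. For Tfap2c the nearest arrays there were almost tied, at 5.421 in DOX-7g and 5.425 in D4-act-7g. In DOX-7g against Dor-7g the count was 3 of 10, with Tfap2c and Krt18 higher and Gata2 lower, where 41.7% did not overlap, 15% higher and 26.7% lower. These shares are near the background. For 0 members did the DOX-7g and Dor-7g arrays lie on opposite sides of D4-act-7g.

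The median change of the members was 0.23 in Dor-7g against D4-act-7g, where that of all genes tested was 0.06. It was 0.05 in DOX-7g against D4-act-7g, beside -0.05 for all genes, and -0.01 in DOX-7g against Dor-7g, beside -0.11. Centring each array on its median moved the median of all genes by -0.13 in Dor-7g against D4-act-7g and by 0.13 in DOX-7g against Dor-7g, so the sign of small changes involving Dor-7g depends on the scaling.

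**Figure D3:**
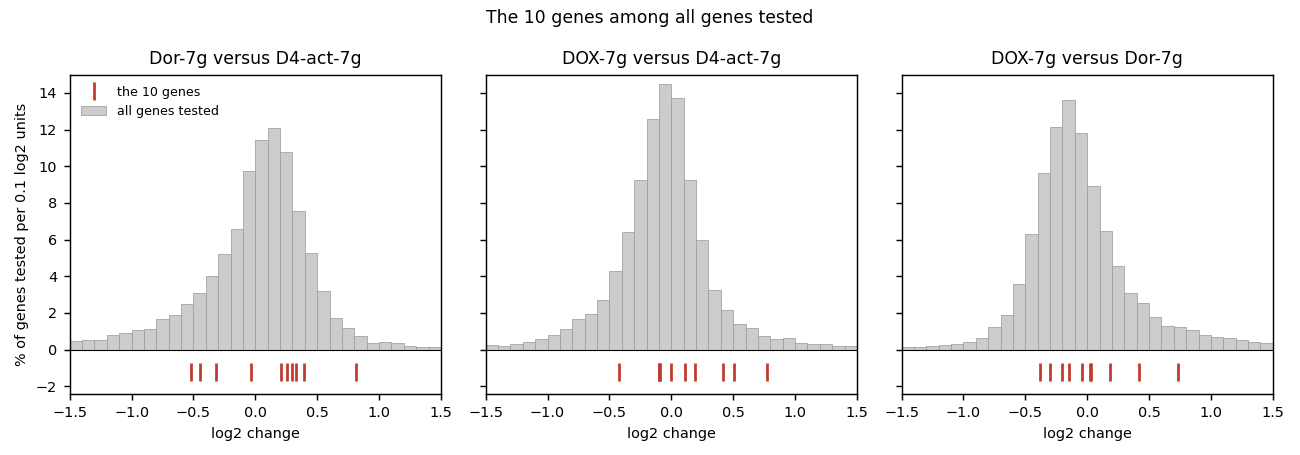
Share of 14020 genes tested (y axis, percent) by log2 change (x axis, 0.1 log2 units per bar) in 3 comparisons, with the 10 genes as marks below; changes of 1.5 log2 units or more, 2.85% to 4.34% of genes, lie outside the axes. The marks lie between -0.52 and 0.81.

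Lists of genes around the members were described in the same way, and counts at an unadjusted p under 0.05 are given in the order Dor-7g against D4-act-7g, DOX-7g against D4-act-7g and DOX-7g against Dor-7g. In that order 14.3%, 11% and 11.6% of all genes tested had such a p in limma, the shares to set beside each list. Of 15 other trophectoderm and trophoblast genes 13 were tested, and 0 passed in any comparison in limma, with 3, 4 and 2 at an unadjusted p under 0.05. Their median changes were 0.28 in Dor-7g and 0.19 in DOX-7g against D4-act-7g, beside 0.06 and -0.05 for all genes, and -0.06 in DOX-7g against Dor-7g, beside -0.11. The placental gene Plac1 had the smallest p in both comparisons of DOX-7g. It stood at 8.55 and 7.99 in DOX-7g, 5.90 and 6.79 in Dor-7g, and 5.75 and 5.98 in D4-act-7g, with the DOX-7g arrays above all others. Its change was 2.41 ± 0.35 in DOX-7g against D4-act-7g (limma, adjusted p = 0.0552) and 1.93 ± 0.35 against Dor-7g (limma, adjusted p = 0.104). With only the 4 arrays of DOX-7g and D4-act-7g in the fit the first passed (limma, adjusted p = 0.0199, and 0.00791 with array weights). With a replicate block the first did not pass (limma, adjusted p = 0.11). The second was 2.37 without Dor-7g replicate 2, which leaves only Dor-7g replicate 1 in that group, and 1.48 without Dor-7g replicate 1.

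Of 12 keratin partners and desmosome genes, Krt7 and Krt19 of the list before among them, 10 were tested and 0 passed in any comparison in limma, with 2, 2 and 2 at an unadjusted p under 0.05. Their changes had medians of 0.25 in Dor-7g and 0.17 in DOX-7g against D4-act-7g and -0.07 in DOX-7g against Dor-7g. Krt19, a type I keratin that can replace Krt18 as a partner of Krt8, stood at 6.53 and 7.27 in DOX-7g, 5.20 and 5.57 in Dor-7g, and 4.72 and 5.25 in D4-act-7g. Both DOX-7g arrays lay above the others, whereas Dor-7g and D4-act-7g overlapped. Its changes were 1.91 ± 0.33 in DOX-7g against D4-act-7g (limma, adjusted p = 0.0846) and 1.52 ± 0.33 against Dor-7g (limma, adjusted p = 0.165), and the first passed with array weights or a replicate block (limma, adjusted p = 0.0283 and 0.0435). With only the 4 arrays compared the first did not pass (limma, adjusted p = 0.0704).

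Krt7, a type II keratin of trophoblast, stood at 7.27 and 7.76 in DOX-7g, 7.81 and 7.31 in Dor-7g, and 6.92 and 6.69 in D4-act-7g. All 4 arrays of the dormant groups were above both D4-act-7g arrays. It had the smallest p of the other trophectoderm genes in Dor-7g against D4-act-7g, with a change of 0.75 ± 0.27 (limma, adjusted p = 0.293). The desmosomal cadherin gene Dsg2 had the smallest p of the desmosome list there, with 5.45 and 5.91 in Dor-7g against 5.11 and 4.74 in D4-act-7g (change 0.75 ± 0.24; limma, adjusted p = 0.24).

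Of 19 Hippo pathway genes 18 were tested and 0 passed in any comparison in limma, with 2, 2 and 0 at an unadjusted p under 0.05. Their changes had medians of -0.03 in Dor-7g and -0.05 in DOX-7g against D4-act-7g, and -0.05 in DOX-7g against Dor-7g. Wwtr1, which encodes TAZ, the coactivator that binds TEAD4, had the smallest p in both comparisons with D4-act-7g. It stood at 7.64 and 7.69 in DOX-7g, 7.06 and 7.65 in Dor-7g, and 8.82 and 8.77 in D4-act-7g. All 4 arrays of the dormant groups lay more than 1 log2 unit below both D4-act-7g arrays. The change was -1.44 ± 0.24 in Dor-7g (limma, adjusted p = 0.0684) and -1.13 ± 0.24 in DOX-7g (limma, adjusted p = 0.141). With only the 4 arrays compared, the second passed (limma, adjusted p = 0.0362, and 0.0225 with array weights). With a replicate block the second did not pass (limma, adjusted p = 0.214). The first was -1.74 without Dor-7g replicate 2, which leaves only Dor-7g replicate 1 in that group, and -1.15 without Dor-7g replicate 1. Tead3 had the smallest p in DOX-7g against Dor-7g, with a change of -0.38 ± 0.17 (limma, adjusted p = 0.471).

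Of 14 trophoblast giant cell and placental genes 3 passed the filter on dim probesets, and 0 of these were called in any comparison in limma, with 0, 1 and 1 at an unadjusted p under 0.05. Their median changes were 0.53, 0.30 and -0.02. Bhlhe40, a helix-loop-helix factor of giant cell differentiation, had the smallest p in each. It stood at 6.31 and 6.02 in DOX-7g, 5.58 and 5.34 in Dor-7g, and 5.13 and 4.72 in D4-act-7g, so that the 3 groups did not overlap. Its changes were 1.24 ± 0.23 in DOX-7g and 0.53 ± 0.23 in Dor-7g against D4-act-7g (limma, adjusted p = 0.102 and 0.373), and 0.71 ± 0.23 in DOX-7g against Dor-7g (limma, adjusted p = 0.338). The first passed with array weights (limma, adjusted p = 0.0333). With a replicate block or only the 4 arrays compared the first did not pass (limma, adjusted p = 0.111 and 0.0724).

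**Figure D4:**
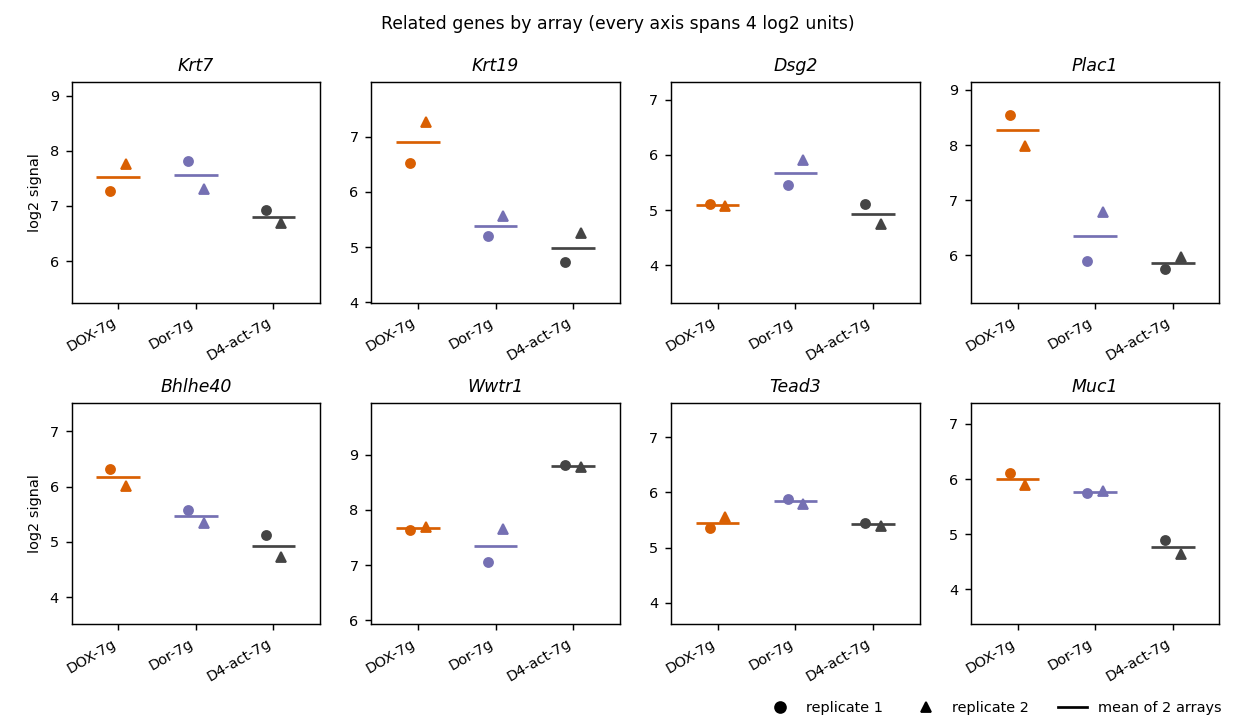
Log2 signal on each array (y axis, 4 log2 units in every panel) of genes around the members in DOX-7g, Dor-7g and D4-act-7g; points are arrays and lines the mean of 2 arrays. Plac1 and Krt19 are highest on both DOX-7g arrays, and Wwtr1 is lower on all 4 DOX-7g and Dor-7g arrays (7.06 to 7.69) than on both D4-act-7g arrays (8.82 and 8.77).

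Markers of other cells were set beside these values. Keratins are also made by uterine epithelium, and 7 of 9 markers of that tissue were measured, with a mean level of 5.53 and 5.63 in DOX-7g, 5.68 and 5.50 in Dor-7g, and 5.23 and 5.18 in D4-act-7g. None of the 4 tested passed in limma, with 1, 2 and 0 at an unadjusted p under 0.05. The mucin gene Muc1 had the smallest p, with 6.11 and 5.89 in DOX-7g, 5.74 and 5.79 in Dor-7g, and 4.91 and 4.65 in D4-act-7g (limma, adjusted p = 0.0643 in DOX-7g and 0.0981 in Dor-7g against D4-act-7g). With only the 4 arrays compared, Muc1 passed in DOX-7g against D4-act-7g (limma, adjusted p = 0.0484). With a replicate block Muc1 did not pass there (limma, adjusted p = 0.131). Pax8, Sprr2f and Calb1 were below the array median on all arrays. Wfdc2 stood between 10.60 and 11.22 on all 6 arrays and raised the means given. Its change was 0.49 ± 0.17 in DOX-7g against D4-act-7g (limma, adjusted p = 0.396). In DOX-7g against Dor-7g Wfdc2 had the smallest p of the list (limma, adjusted p = 0.603).

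Of 11 blood markers 7 were measured, with a mean of 6.87 and 6.68 in DOX-7g, 4.78 and 5.63 in Dor-7g, and 4.46 and 4.82 in D4-act-7g. The unmeasured ones were the haemoglobin genes Hbb-bs, Hbb-bt, Hba-a1 and Hba-a2, so these means hold no haemoglobin gene. The neutrophil gene S100a9 rose by 5.00 in DOX-7g and by 2.21 in Dor-7g against D4-act-7g (limma, adjusted p = 0.00112 and 0.0274), and Ly6g rose by 3.54 in DOX-7g against D4-act-7g (limma, adjusted p = 0.00434). Ly6g lay below the array median on every Dor-7g and D4-act-7g array, so it passed the filter on dim probesets only through DOX-7g. The call of S100a9 in Dor-7g was lost with a replicate block (limma, adjusted p = 0.059), with only the 4 arrays compared (0.0837) and without D4-act-7g replicate 1 or 2 (0.225 and 0.185), and that of Ly6g without DOX-7g replicate 2 (0.054). The other tested blood markers did not pass: the changes in DOX-7g and Dor-7g against D4-act-7g were 7.30 and 1.78 for the neutrophil gene S100a8, 0.80 and 0.44 for the lysozyme gene Lyz2, and -1.55 and -0.65 for the macrophage gene Cd68. The leukocyte gene Ptprc and the macrophage gene Adgre1 lay below the array median on every array. The part of blood or uterine RNA in the keratin, Plac1 and Bhlhe40 values was not tested.

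Of 9 uterine stroma markers 8 were measured, with a mean of 4.80 and 4.89 in DOX-7g, 5.18 and 5.78 in Dor-7g, and 4.76 and 4.80 in D4-act-7g. None of the 4 tested passed in limma, with 1, 0 and 1 at an unadjusted p under 0.05, and the smallest p were those of Esr1 in both comparisons with Dor-7g and Col3a1 in DOX-7g against D4-act-7g (limma, adjusted p = 0.247, 0.278 and 0.754). Dcn and Lum, singled out after their values were seen, stood at 9.29 and 5.01 on Dor-7g replicate 2 and at 4.22 and 4.10 on replicate 1. Of the 8 stroma markers measured, 6 were at or above the array median on Dor-7g replicate 2 and 4 on every other array. The 8 oocyte markers had a mean of 4.94 and 4.74 in DOX-7g, 4.42 and 4.30 in Dor-7g, and 5.00 and 4.97 in D4-act-7g. Oog1 was higher in DOX-7g than in Dor-7g (4.52 ± 0.57; limma, adjusted p = 0.0293), a call lost with array weights, with a replicate block and without DOX-7g replicate 1 or 2 (limma, adjusted p = 0.102, 0.0662, 0.148 and 0.0821). The egg coat gene Zp3 had the smallest p in DOX-7g against D4-act-7g (limma, adjusted p = 0.255).

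The other lineages of the blastocyst were not called either. The 10 inner cell mass and epiblast genes had a mean level of 6.05 and 6.09 in DOX-7g, 6.18 and 6.70 in Dor-7g, and 6.69 and 6.43 in D4-act-7g, and 0 of the 8 tested passed in limma, with 0, 2 and 1 at an unadjusted p under 0.05. Gdf3 had the smallest p in both comparisons with D4-act-7g (limma, adjusted p = 0.563 in Dor-7g and 0.32 in DOX-7g) and Zfp42 in DOX-7g against Dor-7g (limma, adjusted p = 0.316). The 10 primitive endoderm genes had a mean level of 6.08 and 6.16 in DOX-7g, 6.36 and 6.34 in Dor-7g, and 6.03 and 6.08 in D4-act-7g, and 0 of 10 passed in limma, with 1, 0 and 0 at an unadjusted p under 0.05. Col4a1 had the smallest p in both comparisons with Dor-7g and Foxa2 in DOX-7g against D4-act-7g (limma, adjusted p = 0.242, 0.439 and 0.623).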

How the data were processed

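The deposited table holds 1 log2 value per probeset and array, 41345 probesets on 6 arrays; the authors used Partek 6.6 and RMA, per the submitters' processing notes, with settings and genome build not given in the sources used here. Neither tool's role is recorded. Gene names came from the platform's annotation, updated by Entrez identifier in RefSeq GRCm38.p6: 23521 had 1 symbol, 1814 several and 16010 are unnamed here. Probesets with 1 symbol and at least 2 arrays at or above the array median were kept and the brightest stood for its gene, leaving 14020 genes.

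The fit (lmFit and eBayes of limma 3.58.1, run in R 4.3.3) gave each group its mean over all 6 arrays, with 3 residual and 2.81 prior degrees of freedom. p-values were adjusted by Benjamini-Hochberg over all genes tested in each comparison. The fit was checked on simulated data. The members and lists were chosen with earlier results of these data known. Named outside the members are, of each list, the genes past the threshold or else that with the smallest p in each comparison. Dppa5a, Sox17, Sox2, Tdgf1, Dcn, Lum and markers below the median were added after their values were seen. Genes of like pattern were to be named only for members past the threshold, and there were 0. Alternatives covered normalization, filter, variance model, array weights, replicate block, arrays in the fit, probeset rule, threshold and leaving out each array. Over all genes tested, same-numbered arrays did not deviate together (correlations of -0.14 to -0.01). That does not show that the numbers carry no pairing or batch. Single genes can follow the number, as did Elf5 and Krt19, which were higher on replicate 2 in every group. Precision is limited by having 2 arrays a group.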

Additional observations from a re-analysis of the deposited data

Results flagged for a closer look

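Among the genes of the lists described, the difference between both kinds of dormant blastocyst passed limma's test for 3 genes, and over all genes tested for 163 of 14020. S100a9 was higher in DOX-7g than in Dor-7g by 2.79 log2 units (limma, adjusted p = 0.00988), with 9.55 on both DOX-7g arrays and 7.10 and 6.41 in Dor-7g. The call was lost without DOX-7g replicate 1 or 2 (limma, adjusted p = 0.0762 and 0.0821). Ly6g was higher by 3.40 (limma, adjusted p = 0.00422), with 7.41 and 7.39 in DOX-7g and 3.75 and 4.25 in Dor-7g, and its call was lost without DOX-7g replicate 2. Only through the DOX-7g arrays, where it was high, did Ly6g pass the filter on dim probesets. Oog1 was higher by 4.52 (limma, adjusted p = 0.0293), with 7.78 and 6.73 in DOX-7g, 3.22 and 2.25 in Dor-7g, and 5.10 and 6.29 in D4-act-7g, so that the DOX-7g arrays lay above and the Dor-7g arrays below D4-act-7g. Its call was lost with array weights (limma, adjusted p = 0.102), with a replicate block (0.0662) and without DOX-7g replicate 1 or 2 (0.148 and 0.0821).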

How the results depend on the processing

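Over 16 alternatives in each of 3 comparisons, 47 of 48 counts of members called were 0, and the exception was 1 (Krt8 in DOX-7g against Dor-7g without Dor-7g replicate 2, a range of 0 to 1 over left-out arrays). Many alternatives could not turn a sign. The filters, variance model, array weights, replicate block and threshold left the change of a member as it was. Leaving out an array of the group not compared did so too, and gave the same fit as only the 4 arrays compared. Of 480 changes of single members under alternatives 458 kept direction and side of the threshold, 1 came to pass and 21 turned sign, all of them short of the threshold. Those that turned when an array was left out ranged, in Dor-7g against D4-act-7g, from -0.23 to 0.82 for Cdx2, -0.30 to 0.23 for Eomes, -0.038 to 0.55 for Gata3 and -0.88 to 0.25 for Krt8. In DOX-7g against D4-act-7g they ranged from -0.27 to 0.26 for Eomes, -0.034 to 0.25 for Gata3, -0.29 to 1.83 for Elf5 and -0.37 to 0.17 for Hand1, and in DOX-7g against Dor-7g from -0.91 to 0.14 for Cdx2, -0.082 to 0.14 for Eomes, -0.44 to 0.15 for Gata3, -0.11 to 0.16 for Tead4 and -1.10 to 1.01 for Elf5. A second quantile normalization turned Eomes in DOX-7g against D4-act-7g to 0.015 and Elf5 in DOX-7g against Dor-7g to 0.088, as did centring on array medians for Elf5 (0.090). Of 512 checks of other named genes 472 kept direction and side of the threshold, 26 came to pass and 14 lost the call, those of S100a9, Ly6g and Oog1 given beside their values. The cause was not tested.

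Over all genes, the count in Dor-7g against D4-act-7g was 138, and 79 with array weights, 82 with a replicate block, 86 with only the 4 arrays compared, 319 at an adjusted p under 0.10, and 11 to 1172 with an array left out. In DOX-7g against D4-act-7g it was 134, and 461 with array weights, 296 with 4 arrays, 244 at 0.10, and 43 to 296; in DOX-7g against Dor-7g it was 163, and 104 with array weights, 86 with 4 arrays, and 67 to 880. The highest counts came without Dor-7g replicate 2 in both comparisons with Dor-7g. The replicate block called 0 members in each comparison. Where an array was left out, the lone array of its group was assumed to vary like the other groups.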
